A study of Homo sapiens with 12 samples.

Results

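The core autophagy machinery was followed as 50 genes of a table of 28278 genes. They were chosen by symbol for what is known of their roles, with earlier results of these data known. The 50 genes fall into 8 role groups, from the kinase complex that starts autophagosome formation to the proteins that join autophagosomes to lysosomes, and they include 5 receptors that bring cargo to the forming membrane. Levels are given as CPM, the counts of a gene brought to one fixed library total, with library sizes scaled across all 12 libraries by the trimmed mean of M-values (TMM). A gene was tested where it reached 1 CPM in at least 3 libraries of a fit, which kept 47 of the 50. It was called changed at a Benjamini-Hochberg adjusted p under 0.05 in edgeR's quasi-likelihood test, adjusted over all genes tested.

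Autophagy encloses cytoplasm in a double membrane, the autophagosome, and delivers it to the lysosome for breakdown. The ULK1 kinase complex starts the process, the class III phosphatidylinositol 3-kinase complex marks the site with its lipid, and WIPI and ATG2 proteins bind that lipid and carry membrane lipid to the growing sheet. Members of the ATG8 family (LC3 and GABARAP proteins) are trimmed by ATG4 proteases, attached to the membrane by the ATG7, ATG3, ATG10, ATG12, ATG5 and ATG16L1 enzymes, and bound by receptors such as SQSTM1, OPTN and CALCOCO2 that hold cargo. Hydroxychloroquine (HCQ) is a weak base that gathers in lysosomes and is used to block the late steps of autophagy.

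The samples were 2 human cancer cell lines, OVCAR3, labelled as ovarian cancer, and CCL218, labelled as colorectal cancer. For each line, wells of a plate went through 15 pulses of HCQ (HCQ-evolved, passage 15) or were passaged without the drug (control, passage 19), and RNA was taken after drug-free growth. Wells of each plate were pooled by plate position, and the pools are labelled L, M and R. The letters are not spelled out, and the same letter is taken here as the same position. Each of the 4 groups has 3 pools from a single plate. Passage number and plate therefore cannot be told apart from HCQ evolution, and p-values measure the spread between pools of one plate. Each pool mixes many wells, so a change in every well and a large change in a few wells cannot be told apart.

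Library totals ran from 31147822 to 59965861 counts. Small counts were mostly even numbers, so both mates of a read pair may each have been counted, and the counts printed here may then overstate the number of fragments, which was not tested. The tissue labels were checked against marker genes before any comparison. All 6 OVCAR3 libraries held intestinal epithelial markers, with VIL1 at 78.5 to 290 CPM and LGALS4 at 133 to 859 CPM, against 160 to 202 CPM and 730 to 1370 CPM in CCL218. Of the ovarian serous markers, SOX17 had 0 counts in every library, EMX2 reached at most 2 counts and WT1 stayed at or below 2.35 CPM in OVCAR3, while PAX8 stood at 7.23 to 14.9 CPM in OVCAR3 and 6.40 to 11.2 CPM in CCL218. Of the colorectal markers, KRT20 reached at most 4 counts and CDX1 at most 29 counts in any library. The summed 12 colorectal markers were 296.5 to 788 CPM in HCQ-evolved OVCAR3, 1021 to 1292 CPM in control OVCAR3, 1218 to 1798 CPM in control CCL218 and 1286 to 1372 CPM in HCQ-evolved CCL218. The summed 8 ovarian markers were 87.4 to 107 CPM in control OVCAR3, 66.8 to 96.1 CPM in HCQ-evolved OVCAR3, 131 to 165 CPM in control CCL218 and 156 to 189 CPM in HCQ-evolved CCL218. Single colorectal markers did separate the lines as the labels say, but no ovarian marker did. The intestinal transcription factor CDX2 was at 0.803 to 13.7 CPM in OVCAR3 and 21.2 to 71.3 CPM in CCL218, and the adhesion protein CEACAM5 at 3.70 to 7.93 CPM and 13.0 to 67.4 CPM. The ovarian marker MUC16 had a median of 22.6 CPM in OVCAR3 and 5.33 CPM in CCL218, with ranges that overlapped, whereas the ovarian marker MSLN lay the other way, at 2.21 to 18.3 CPM in OVCAR3 and 46.4 to 128 CPM in CCL218. Median levels in OVCAR3 and CCL218 were 3.09 and 2.18 CPM for FOLR1 and 33.9 and 52.2 CPM for MECOM, with ranges that overlapped. The lines are called here by their labels. The part of these marker differences in the results below was not tested.

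Nearly all of the machinery was expressed in both lines. On a scale of CPM per kilobase of transcript (RPKM), which allows levels of different genes to be compared, the mean over all 12 libraries ran from 130.4 for SQSTM1, the receptor also known as p62, to 1.16 for the lipid transfer protein ATG2B among the genes tested. After SQSTM1 came VAMP8, a fusion protein, at 117 RPKM, GABARAP at 91.2 RPKM, WDR45B at 85.8 RPKM and GABARAPL2 at 68.6 RPKM. The initiating kinase ULK1 stood in the middle of the list at 18.3 RPKM, rank 20 of 50, and the catalytic lipid kinase PIK3C3 was low, at 2.16 RPKM. The 3 genes ULK2, PLEKHM1 and MAP1LC3B2 were not tested because their counts were near 0. ULK2, the paralog of ULK1, had 0 to 8 counts in a library, PLEKHM1, a tethering adaptor, had 0 to 8 counts, and MAP1LC3B2 had 4 to 16 counts. MAP1LC3B2 is a near-identical copy of MAP1LC3B, so its reads and those of MAP1LC3B are uncertain, although it held at most 0.53% of the counts of both.

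**Figure D1:**
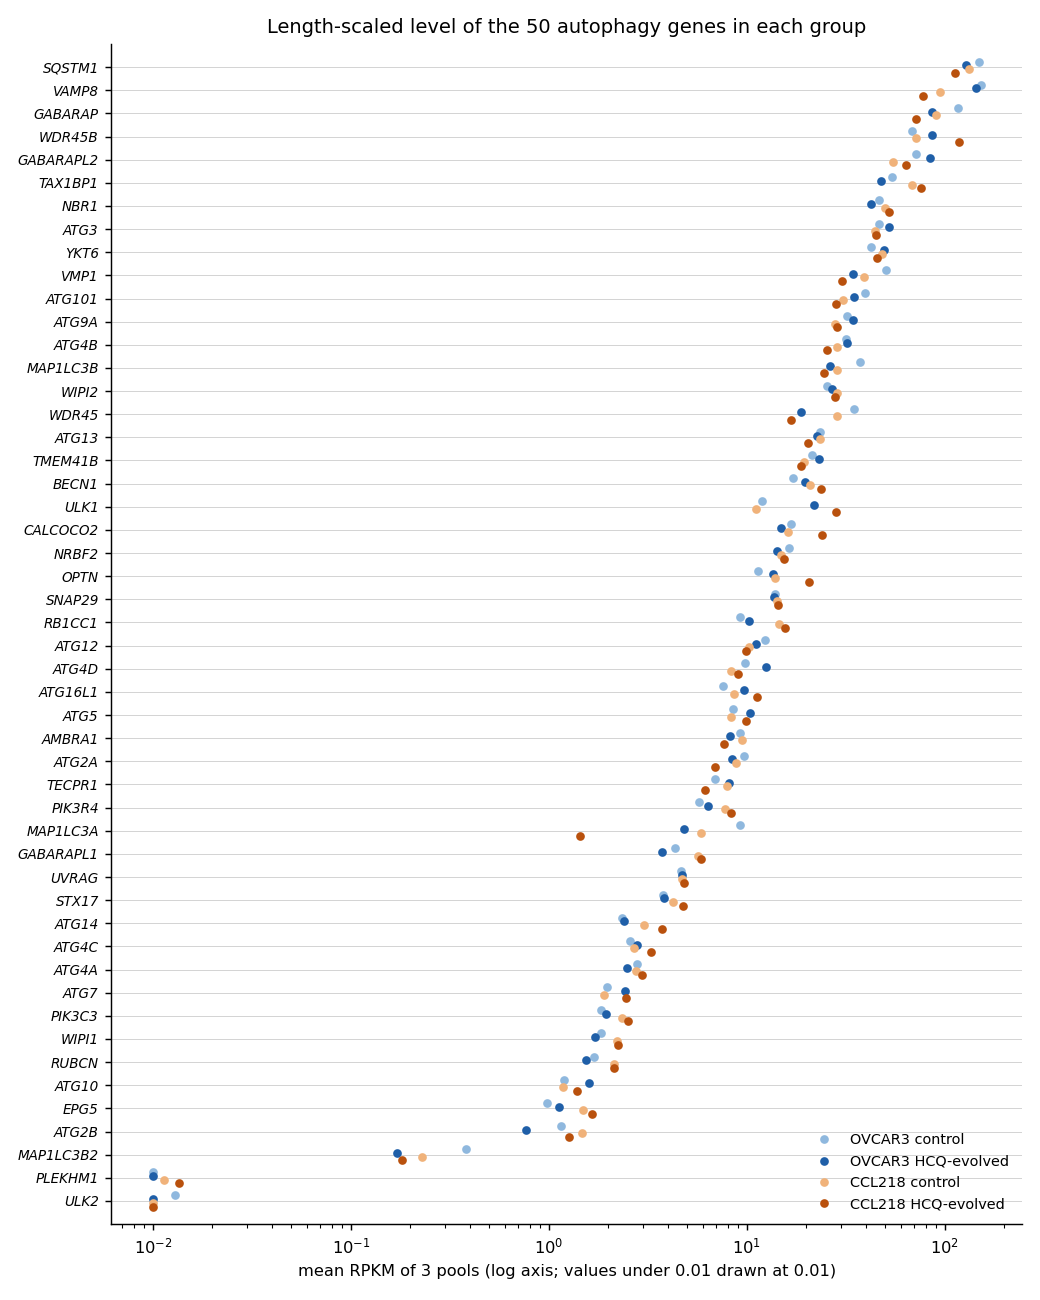
Mean RPKM of the 3 pools in each of the 4 groups for all 50 genes (x axis, log scale), ordered by their mean over the groups. Most genes had similar levels in the 4 groups. ULK1, WDR45 and MAP1LC3A are among the genes with the most spread points, and ULK2, PLEKHM1 and MAP1LC3B2 sit far below the others.

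The first comparison asked which of the 47 tested genes differed between HCQ-evolved and control pools of the same line. In CCL218, ULK1, WDR45B, OPTN and CALCOCO2 were higher after HCQ evolution and MAP1LC3A was lower. Thus 4 of 47 rose, where 3.82% of all 12241 genes tested rose, and 1 of 47 fell, where 2.64% of all genes fell. In OVCAR3, 0 of 47 were called by edgeR, where 1.86% of all 12204 genes tested were called. At an unadjusted p under 0.05, 3 of the 47 passed in OVCAR3 (6.38%, against 16.2% of all genes) and 8 of the 47 passed in CCL218 (17.0%, against 25.2% of all genes). DESeq2 called 2 of the 47 in OVCAR3, ULK1 and WDR45, against 9.05% of all genes, and limma-voom called 0, against 2.40%. The median absolute log2 fold change of the 47 was 0.18 in OVCAR3 and 0.18 in CCL218, against 0.27 and 0.26 over all genes. Their median signed log2 fold change was 0.04 in each line, against 0.02 and -0.02 over all genes. In OVCAR3, 42 of 47 genes and in CCL218 41 of 47 stayed within 0.5 log2 units of their control level. The pools of the HCQ-evolved and control groups did not overlap for 11 of 47 genes in OVCAR3, against 25.7% of all genes, and for 16 of 47 in CCL218, against 36.0% of all genes.

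**Figure D2:**
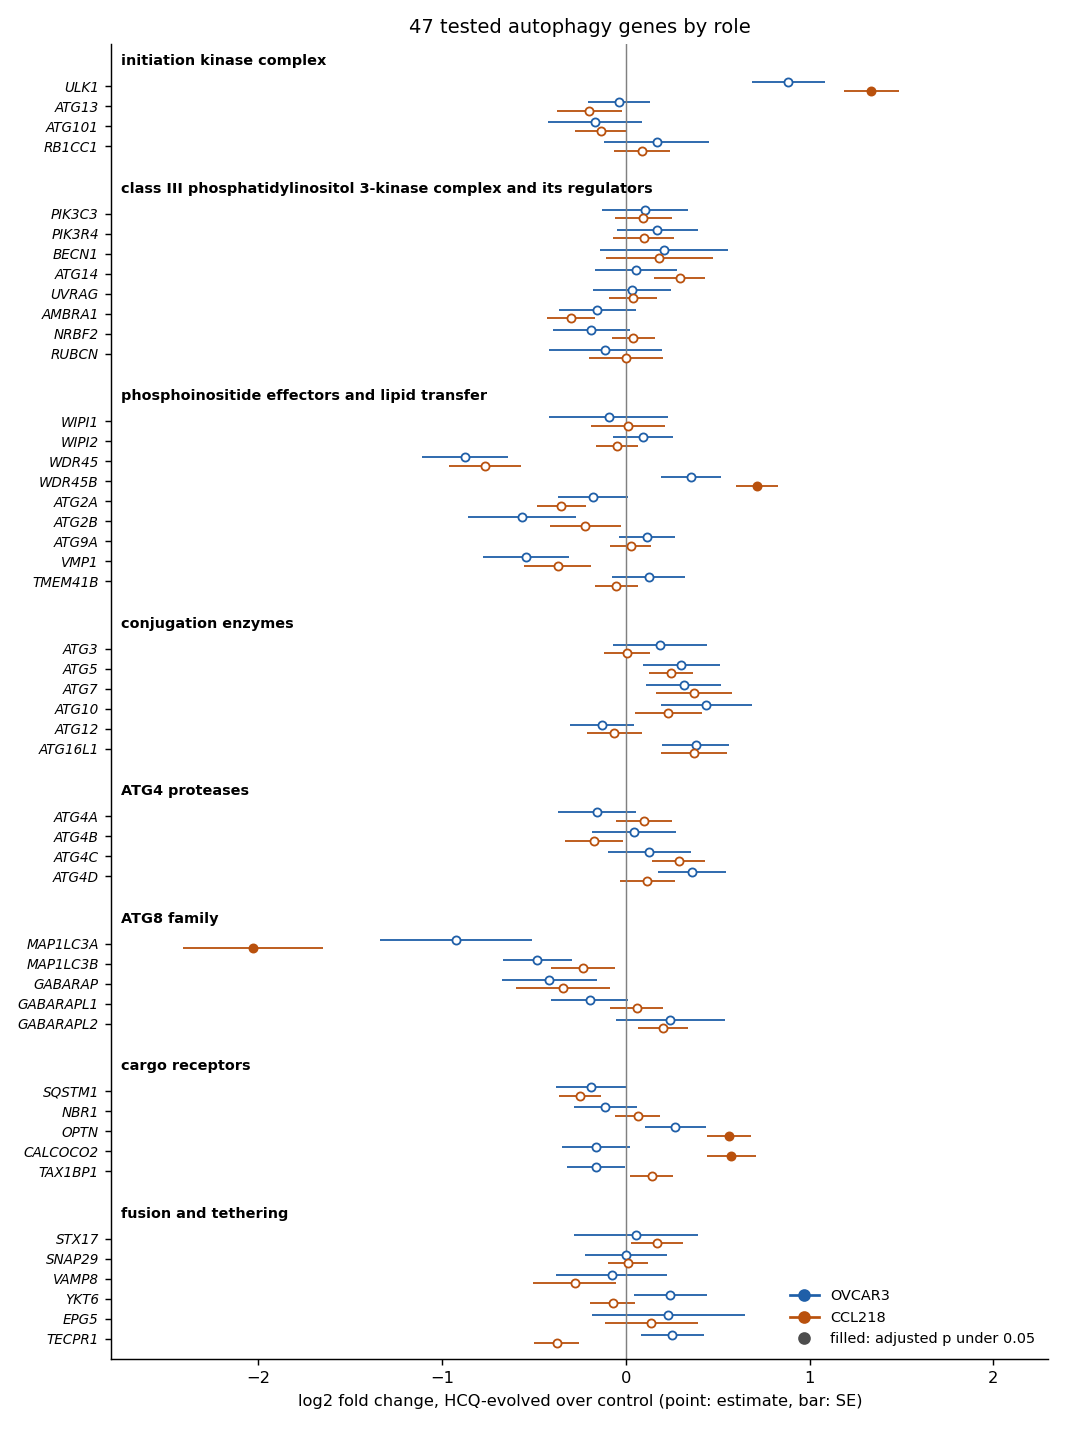
Log2 fold change of HCQ-evolved over control pools (x axis, point with SE bar, 3 pools a group) for the 47 tested genes, grouped by role, in OVCAR3 (blue) and CCL218 (orange). Filled points mark adjusted p under 0.05, which 5 genes reached in CCL218 and 0 in OVCAR3. ULK1 lies to the right of zero and WDR45 and MAP1LC3A to the left of it in both lines.

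The initiation complex holds ULK1, its partners ATG13, ATG101 and RB1CC1, and ULK2. ULK1, the kinase on which nutrient signals from mTORC1 and AMPK meet, was the most changed of the raised genes. Its level in CCL218 was 51.0, 68.5 and 58.8 CPM in control pools L, M and R and 157, 158 and 136 CPM in HCQ-evolved pools. In OVCAR3 it was 55.6, 78.4 and 57.7 CPM in control pools and 116, 116 and 117 CPM in HCQ-evolved pools. The groups did not overlap in either line, and every HCQ-evolved pool lay above every control pool of both lines. In CCL218 the change was 2.52-fold (log2 1.33, SE 0.15, adjusted p = 0.00475), and it was called when any of the 6 libraries was left out. In OVCAR3 it was 1.85-fold (log2 0.88, SE 0.20, 95% interval 0.42 to 1.35), which missed the threshold (adjusted p = 0.0732) but passed it in 5 of 9 other fits. The difference between the lines was 0.47 log2 units (95% interval -0.03 to 0.97, adjusted p = 0.608), so a larger rise in CCL218 was not shown.

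The partners of ULK1 were not called. ATG13, the scaffold of the complex, was at 88.8, 105 and 103 CPM in control and 94.7, 95.7 and 96.4 CPM in HCQ-evolved OVCAR3, and at 74.4, 111.5 and 112 CPM in control and 90.0, 84.9 and 85.4 CPM in HCQ-evolved CCL218. Its log2 fold change was -0.04 in OVCAR3 (95% interval -0.42 to 0.35) and -0.20 in CCL218 (95% interval -0.61 to 0.21). ATG101, which stabilises ATG13, was at 53.4, 47.4 and 68.2 CPM in control and 56.2, 58.5 and 34.4 CPM in HCQ-evolved OVCAR3, and at 41.8, 42.02 and 48.3 CPM in control and 45.6, 37.02 and 37.98 CPM in HCQ-evolved CCL218. It changed by -0.17 (95% interval -0.76 to 0.42) and -0.14 (95% interval -0.47 to 0.19) on the log2 scale. The groups of ATG13, ATG101 and RB1CC1 overlapped in both lines.

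The class III phosphatidylinositol 3-kinase group had 0 of 8 genes called in either line. The shares of all genes were 1.86% called in OVCAR3, and 3.82% called higher and 2.64% lower in CCL218. PIK3C3, the kinase itself, was at 15.3, 21.0 and 15.3 CPM in control and 15.9, 16.8 and 22.1 CPM in HCQ-evolved OVCAR3, and at 18.9, 24.3 and 23.0 CPM in control and 20.7, 26.4 and 23.8 CPM in HCQ-evolved CCL218. The groups overlapped in both lines, and the log2 fold changes were 0.10 (95% interval -0.44 to 0.65) and 0.10 (95% interval -0.27 to 0.46). BECN1, the regulatory subunit that binds BCL2, had wider spread than its partners. Its control pools L, M and R were at 19.2, 48.1 and 41.3 CPM in OVCAR3 and at 24.1, 54.2 and 53.8 CPM in CCL218, while the 6 HCQ-evolved pools lay between 37.7 and 50.4 CPM. Control pool L lay 1.09 log2 units below the lower of the other control pools in OVCAR3 and 1.14 below it in CCL218. With it the log2 fold change was 0.21 (SE 0.35) in OVCAR3 and 0.18 (SE 0.29) in CCL218, and without it -0.11 and -0.12. AMBRA1, a scaffold of the complex, was at 45.4, 56.0 and 46.7 CPM in control and 38.8, 41.3 and 40.7 CPM in HCQ-evolved CCL218. These groups did not overlap, but the change of -0.30 log2 units (SE 0.13) was not called (adjusted p = 0.21).

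The 9 genes of lipid binding and membrane supply split within 1 family. The WIPI proteins WIPI1, WIPI2, WDR45B (WIPI3) and WDR45 (WIPI4) bind the lipid made by PIK3C3, and WDR45 also holds ATG2 proteins at the membrane. WDR45B was at 181, 186 and 169 CPM in control and 297, 307 and 276 CPM in HCQ-evolved CCL218, a 1.64-fold rise (log2 0.71, SE 0.11, adjusted p = 0.0145). In OVCAR3 it was at 161, 184 and 164 CPM in control and 224, 231 and 190 CPM in HCQ-evolved pools, a change of 0.35 log2 units (SE 0.17) that was not called (adjusted p = 0.347). The groups did not overlap in either line. WDR45, named here after its values were seen, lay on the other side of its controls. It was at 60.9, 43.99 and 62.0 CPM in control and 35.2, 32.4 and 22.6 CPM in HCQ-evolved OVCAR3, and at 57.1, 38.3 and 41.1 CPM in control and 31.03, 25.1 and 24.4 CPM in HCQ-evolved CCL218. Its groups did not overlap in either line, with log2 fold changes of -0.87 (SE 0.23, adjusted p = 0.112) and -0.77 (SE 0.19, adjusted p = 0.0641). In CCL218 it was called in an edgeR fit that took plate position as a block (adjusted p = 0.0102). Of 9 other fits, 5 called it in CCL218 and 3 in OVCAR3. DESeq2 was among them in both lines (adjusted p = 0.0037 and 0.0125), where it called 17.7 and 9.05% of all genes. With 1 library left out, WDR45 was called in 1 of 6 edgeR fits in CCL218 and 0 of 6 in OVCAR3.

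As shares of the summed RPKM of the 4 WIPI genes, WDR45B held 49.3 to 57.7% in control and 63.3 to 65.9% in HCQ-evolved OVCAR3, and 52.3 to 57.9% in control and 70.0 to 73.3% in HCQ-evolved CCL218. WDR45 held 21.6 to 29.6% in control and 12.2 to 15.5% in HCQ-evolved OVCAR3, and 18.7 to 25.9% in control and 9.35 to 11.4% in HCQ-evolved CCL218. The share of WIPI2, which recruits ATG16L1, was 18.9 to 20.3% and 19.7 to 20.7% in OVCAR3 and 20.3 to 24.3% and 16.0 to 17.4% in CCL218. Shares of 1 sum are not independent of each other. Of the remaining genes of the group, ATG2A, ATG2B, ATG9A, VMP1 and TMEM41B, none was called in either line, with log2 fold changes of -0.18, -0.56, 0.12, -0.54 and 0.12 in OVCAR3 and -0.35, -0.22, 0.03, -0.37 and -0.05 in CCL218.

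Among the 6 conjugation enzymes and 4 ATG4 proteases, 0 were called in either line. Among all genes, 1.86% were called in OVCAR3, and 3.82% were higher and 2.64% lower in CCL218. Of the enzymes, 5 of 6 had a positive estimate in each line, with a median log2 fold change of 0.31 in OVCAR3 and 0.24 in CCL218, and pools that did not overlap for 3 of them in OVCAR3, against 25.7% of all genes, and for 4 in CCL218, against 36.0% of all genes. ATG16L1, which places the conjugation complex on the membrane, was at 23.5, 26.8 and 24.5 CPM in control and 32.0, 28.7 and 35.4 CPM in HCQ-evolved OVCAR3. In CCL218 it was at 21.6, 31.1 and 32.8 CPM in control and 37.3, 34.9 and 38.6 CPM in HCQ-evolved pools. The groups were apart in both lines, with log2 fold changes of 0.38 (SE 0.18, adjusted p = 0.362) and 0.37 (SE 0.18, adjusted p = 0.245). ATG4D, a protease that trims GABARAP proteins, was at 19.1, 17.7 and 20.9 CPM in control and 24.7, 27.6 and 21.1 CPM in HCQ-evolved OVCAR3. That change of 0.36 log2 units (SE 0.18) was not called (adjusted p = 0.386).

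Of the ATG8 family, MAP1LC3A fell in CCL218, and no other member was called in the first comparison in either line. MAP1LC3A encodes LC3A and is the least expressed LC3 gene tested. It was at 9.09, 3.59 and 4.23 CPM in control and 1.498, 1.31 and 1.34 CPM in HCQ-evolved CCL218, with 72 to 80 counts in each HCQ-evolved library. The groups did not overlap, and control pool L was well above the other controls. The level fell to 0.245 of control (log2 -2.03, SE 0.38, adjusted p = 0.0266). Without control pool L the estimate was -1.51 log2 units and called, in a fit that called 25.2% of all genes. The call held in only 2 of 6 fits with 1 library left out (edgeR adjusted p = 0.00058 to 0.159). In OVCAR3 it was at 12.9, 5.68 and 8.01 CPM in control and 5.43, 6.04 and 2.39 CPM in HCQ-evolved pools, which overlapped (log2 -0.92, SE 0.41, adjusted p = 0.33). MAP1LC3B, the LC3 most used as a marker of autophagosomes, was at 87.7, 70.8 and 81.4 CPM in control and 62.1, 60.7 and 47.03 CPM in HCQ-evolved OVCAR3. Its change there was -0.48 log2 units (SE 0.19, adjusted p = 0.254), and in CCL218 it was -0.23 (SE 0.17, adjusted p = 0.435). In OVCAR3 both LC3 genes were called lower in an edgeR fit with trends of transcript length and GC content removed. The adjusted p was 0.0467 for MAP1LC3A and 0.0336 for MAP1LC3B, and that fit called 8.6% of all genes.

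The make-up of the ATG8 family, described here after its values were seen, was led by GABARAP and GABARAPL2 in every pool. GABARAPL2 held 25.4, 29.9 and 34.6% of the family's summed RPKM in control and 40.9, 42.9 and 37.8% in HCQ-evolved OVCAR3. In CCL218 it held 24.0, 32.7 and 34.5% in control and 37.0, 39.0 and 37.9% in HCQ-evolved pools. The level of GABARAPL2 itself overlapped between groups in both lines and was not called. Its log2 fold change was 0.24 in OVCAR3 (edgeR adjusted p = 0.739) and 0.20 in CCL218 (adjusted p = 0.379). A share also grows when other genes of the family fall. GABARAP held 46.2 to 52.4% in control and 41.6 to 42.5% in HCQ-evolved OVCAR3, and 44.6 to 54.3% and 41.7 to 44.7% in CCL218. MAP1LC3A held 3.13 to 5.05% in control and 1.76 to 2.57% in HCQ-evolved OVCAR3, and 2.41 to 4.0% and 0.794 to 0.946% in CCL218. The family's sum overlapped between groups in both lines, at 188 to 265 and 141 to 244 RPKM in OVCAR3 and at 154 to 236 and 147 to 183 RPKM in CCL218.

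**Figure D3:**
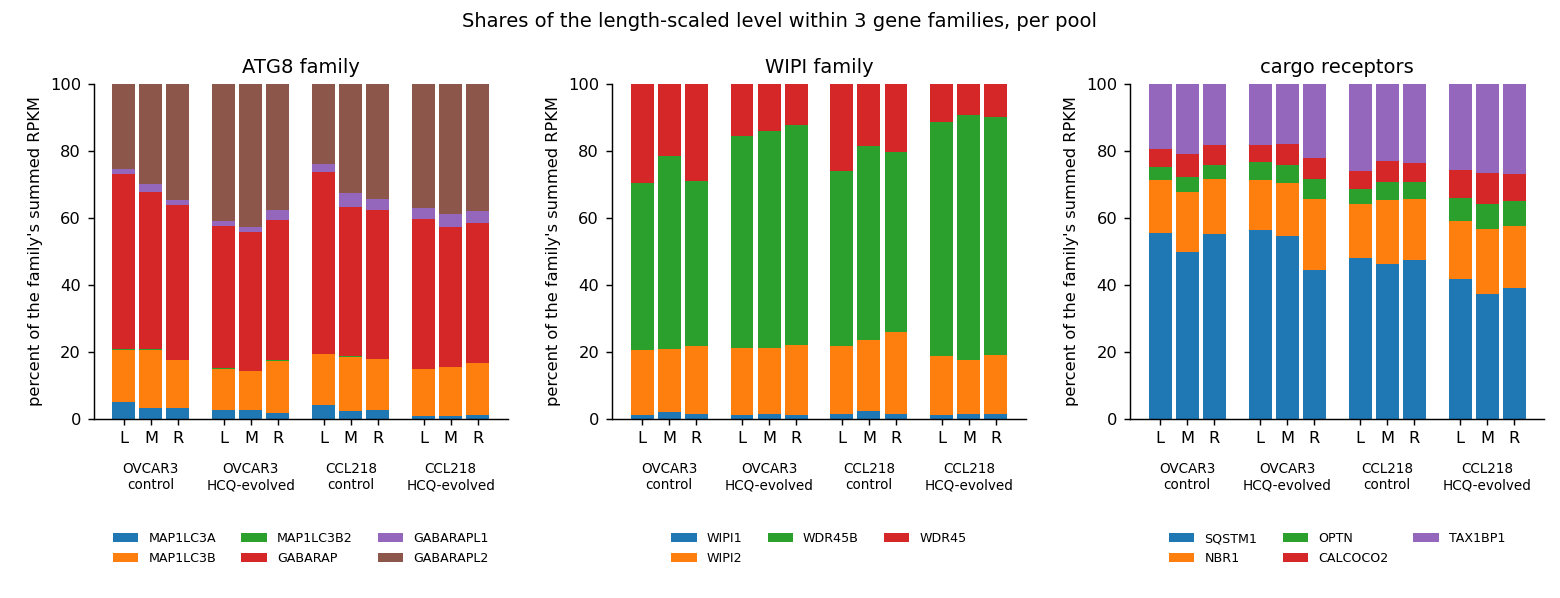
Share of each gene in the summed RPKM of its family (y axis, percent) in each of the 12 pools, for the ATG8 family, the WIPI family and the cargo receptors. The WDR45B band is wider and the WDR45 band narrower in all 6 HCQ-evolved pools, and the GABARAPL2 band is wider in HCQ-evolved pools of both lines. Bands show shares, which depend on each other, and not levels.

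Cargo receptors held 2 of the 5 genes called in CCL218. OPTN, a receptor for ubiquitinated mitochondria and bacteria, was at 44.5, 51.3 and 49.3 CPM in control and 68.6, 75.9 and 70.3 CPM in HCQ-evolved CCL218 (1.48-fold, log2 0.56, SE 0.12, adjusted p = 0.0379). Control pools of OVCAR3 had OPTN at 37.5, 39.9 and 41.4 CPM and the HCQ-evolved pools at 47.8, 46.2 and 47.5 CPM (log2 0.27, SE 0.17, adjusted p = 0.473). The groups of OPTN did not overlap in either line. CALCOCO2, the receptor NDP52 that binds invading bacteria and damaged mitochondria, was at 55.2, 61.5 and 58.5 CPM in control and 85.1, 98.4 and 77.9 CPM in HCQ-evolved CCL218 (1.49-fold, log2 0.57, SE 0.13, adjusted p = 0.0481). Control pools of OVCAR3 had CALCOCO2 at 53.1, 68.3 and 61.8 CPM and the HCQ-evolved pools at 50.4, 56.8 and 55.0 CPM, which overlapped (log2 -0.16, SE 0.18, adjusted p = 0.719). SQSTM1, the most abundant receptor, was at 391, 359.5 and 381 CPM in control and 340.4, 312 and 302 CPM in HCQ-evolved CCL218. Those groups did not overlap, but the change of -0.25 log2 units (SE 0.12) was not called (adjusted p = 0.227). NBR1 and TAX1BP1 were not called in either line.

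In CCL218, OPTN held 4.47 to 5.38% of the receptors' summed RPKM in control and 6.87 to 7.42% in HCQ-evolved pools. CALCOCO2 held 5.31 to 6.18% in control and 7.88 to 9.19% in HCQ-evolved pools. SQSTM1 held 46.2 to 48.1% in control and 37.3 to 41.8% in HCQ-evolved pools. The sum of the 5 receptors was 274 to 286 RPKM in control and 272 to 295 RPKM in HCQ-evolved CCL218.

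**Figure D4:**
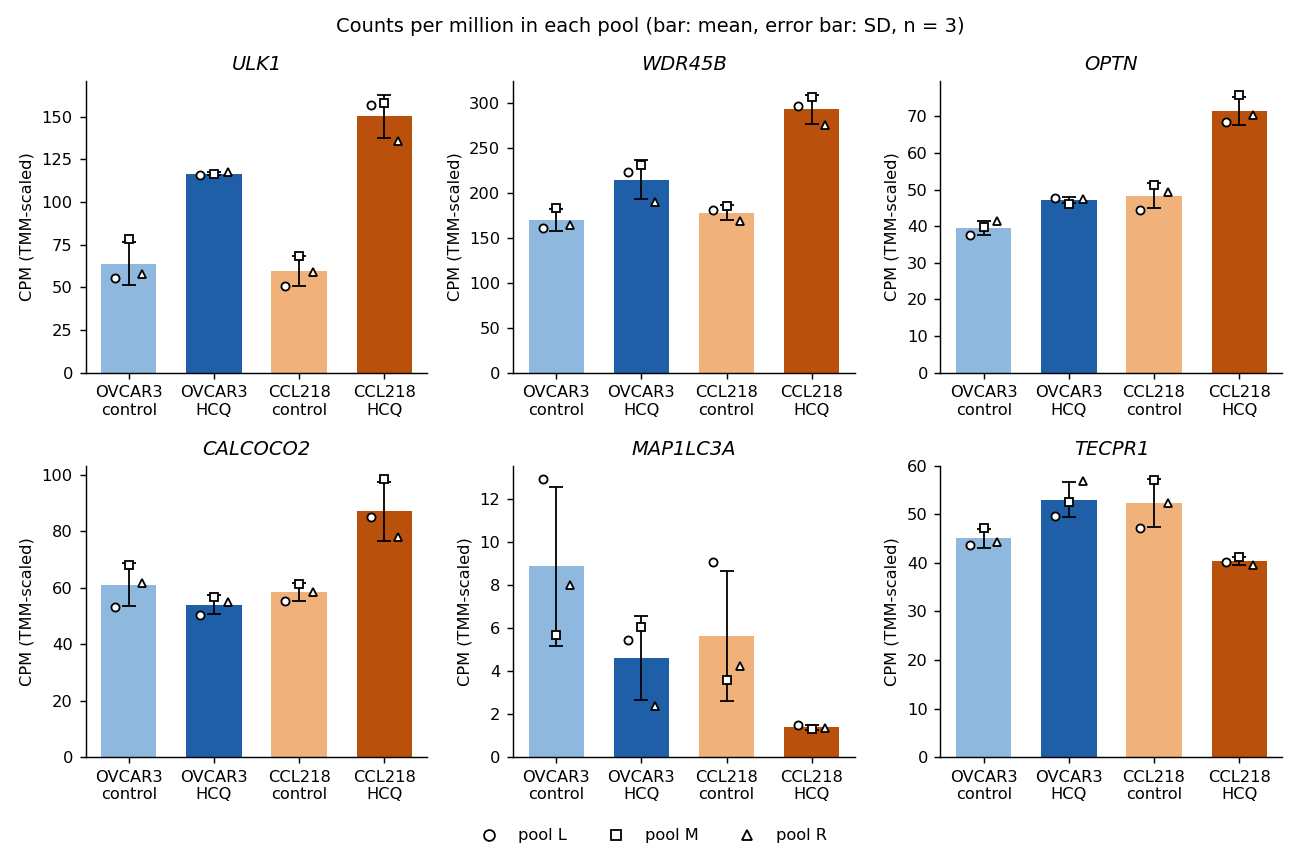
CPM in each pool (open symbols; L circle, M square, R triangle), with group mean (bar) and SD (error bar, n = 3), for the 5 genes called in CCL218 and for TECPR1. ULK1 is at 116 to 158 CPM in the HCQ-evolved pools of both lines and at 51.0 to 78.4 CPM in the controls. CALCOCO2 is at 77.9 to 98.4 CPM in HCQ-evolved CCL218 and at 50.4 to 68.3 CPM in the other groups, and TECPR1 lies above its controls in OVCAR3 and below them in CCL218.

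Genes of fusion and tethering bring the closed autophagosome to the lysosome, the step nearest to where HCQ acts. Of the 6 tested, 0 were called in either line. Over all genes, 1.86% were called in OVCAR3, and 3.82% were higher and 2.64% lower in CCL218. At these shares, 0 of 6 does not set the group apart. STX17, the SNARE protein of the autophagosome, was at 25.1, 32.9 and 19.6 CPM in control and 20.8, 19.4 and 39.0 CPM in HCQ-evolved OVCAR3 (log2 0.06, 95% interval -0.73 to 0.84). In CCL218 it was at 27.1, 32.5 and 27.6 CPM in control and 29.1, 33.7 and 35.4 CPM in HCQ-evolved pools (log2 0.17, 95% interval -0.16 to 0.50). SNAP29, its SNARE partner, had nearly the same level in every CCL218 pool, from 58.8 to 61.5 CPM in control and 59.9 to 62.4 CPM in HCQ-evolved pools (log2 0.01, 95% interval -0.25 to 0.27). In OVCAR3 the log2 fold change of SNAP29 was 0.00055 (95% interval -0.51 to 0.52), with HCQ-evolved pool R at 74.6 CPM above the others at 48.6 and 52.1 CPM. TECPR1, a tethering protein that binds the ATG12-ATG5 conjugate, was at 43.6, 47.2 and 44.2 CPM in control and 49.7, 52.5 and 56.8 CPM in HCQ-evolved OVCAR3. In CCL218 it was at 47.2, 57.1 and 52.3 CPM in control and 40.2, 41.2 and 39.6 CPM in HCQ-evolved pools. Its groups were apart in both lines, in opposite directions, but neither change was called (log2 0.25, SE 0.17, adjusted p = 0.519 and log2 -0.38, SE 0.12, adjusted p = 0.118).

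The pools of CCL218 at the same plate position deviated together, with correlations of 0.537 for L, 0.265 for M and 0.225 for R, so the comparison was also made with plate position as a block. The match by position was not exclusive, since control pool M correlated more with HCQ-evolved pool R (0.467) than with pool M. With the block, 6 of 47 genes were called, where 14.2% of all genes were called, and WDR45 joined the others with an adjusted p of 0.0102. The number of calls in CCL218 rested on single libraries. It was 10 without control pool L, where 25.2% of all genes were called, and 3 without control pool M, against 3.65% of all genes. It was 1 without control pool R or any of HCQ-evolved pools L, M and R, against 1.20, 1.21, 0.841 and 1.18% of all genes, and that 1 gene was ULK1.

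A test of the interaction asked whether the change with HCQ evolution differed between the lines. It called 0 of 47 genes, where edgeR called 0.872% of all 12613 genes tested. At an unadjusted p under 0.05, 2 of 47 passed, against 9.11% of all genes, and DESeq2 called 2, against 3.67% of all genes. Both were CALCOCO2 and TECPR1. The change of CALCOCO2 was higher in CCL218 than in OVCAR3 by 0.75 log2 units (95% interval 0.32 to 1.19), with an adjusted p of 0.131 in edgeR and 0.00936 in DESeq2. The change of TECPR1 was lower in CCL218 by 0.61 log2 units (interaction log2 -0.61, 95% interval -0.99 to -0.23), with an adjusted p of 0.168 in edgeR and 0.00625 in DESeq2. For OPTN, WDR45B and MAP1LC3A, called in CCL218 alone, the interaction was not called (adjusted p = 0.672, 0.555 and 0.72), so a difference between the lines was not shown for them.

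The lines were also compared with each other, within control pools and within HCQ-evolved pools. In control pools, edgeR called 0 of 47 genes between the lines, against 3.42% of all genes. At an unadjusted p under 0.05, 6 of 47 passed, against 14.5% of all genes, and DESeq2 called 1, TAX1BP1, against 7.33% of all genes. In HCQ-evolved pools, 6 of 47 were higher in CCL218, where 6.67% of all genes were higher, and 1 of 47 was lower, where 6.40% were lower. The 6 were the receptors TAX1BP1 (log2 0.66, adjusted p = 0.0034), OPTN (log2 0.60, adjusted p = 0.00619) and CALCOCO2 (log2 0.69, adjusted p = 0.00815), GABARAPL1 (log2 0.66, adjusted p = 0.0165), WDR45B (log2 0.45, adjusted p = 0.0341) and ATG14, the subunit that directs PIK3C3 to autophagy (log2 0.64, adjusted p = 0.0349). The lower gene was MAP1LC3A (log2 -1.74, adjusted p = 0.0258). TAX1BP1 was at 164, 151 and 175 CPM in HCQ-evolved OVCAR3 and 254.5, 269 and 252 CPM in HCQ-evolved CCL218, while the control pools were at 188, 190 and 178.5 CPM in OVCAR3 and 256, 216.5 and 229 CPM in CCL218. The receptor was thus also apart between the control groups, where its difference of 0.34 log2 units was not called (adjusted p = 0.184). The count in HCQ-evolved pools was 20 without OVCAR3 HCQ-evolved pool R, where 31.5% of all genes were called, and 3 without OVCAR3 HCQ-evolved pool L or M, against 8.17 and 7.78% of all genes. It was 3, 2 and 4 without CCL218 HCQ-evolved pools L, M and R, against 8.17, 6.30 and 6.87% of all genes.

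Transcript length moved with the level of the 47 genes in several pools. Each gene's log2 CPM in a pool was set against its mean over the 6 pools of the line, and these deviations were ranked against transcript length. The Spearman rho over the 47 genes ran from -0.785 in OVCAR3 control pool R to 0.764 in OVCAR3 HCQ-evolved pool R, and over all genes it was -0.419 and 0.579 in these pools. In OVCAR3 HCQ-evolved pool R, genes with short transcripts were low, such as GABARAP at 77.9 CPM against 129 and 134 CPM in pools L and M, and VAMP8 at 62.8 CPM against 103 and 125 CPM. Genes with long transcripts were high there, such as EPG5, a tether, at 22.5 CPM against 10.1 and 10.5 CPM and RB1CC1 at 96.3 CPM against 56.2 and 51.9 CPM. Between the lines the log2 fold changes of the 47 genes rose with length, with a rho of 0.553 in control and 0.435 in HCQ-evolved pools. Over all genes the rho was 0.528 and 0.471, so this trend was not particular to the 47. Between HCQ-evolved and control pools it was 0.185 in OVCAR3 and 0.133 in CCL218, against 0.163 and 0.254 over all genes. These rank correlations are across genes of the same libraries and are given as a description.

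**Figure D5:**
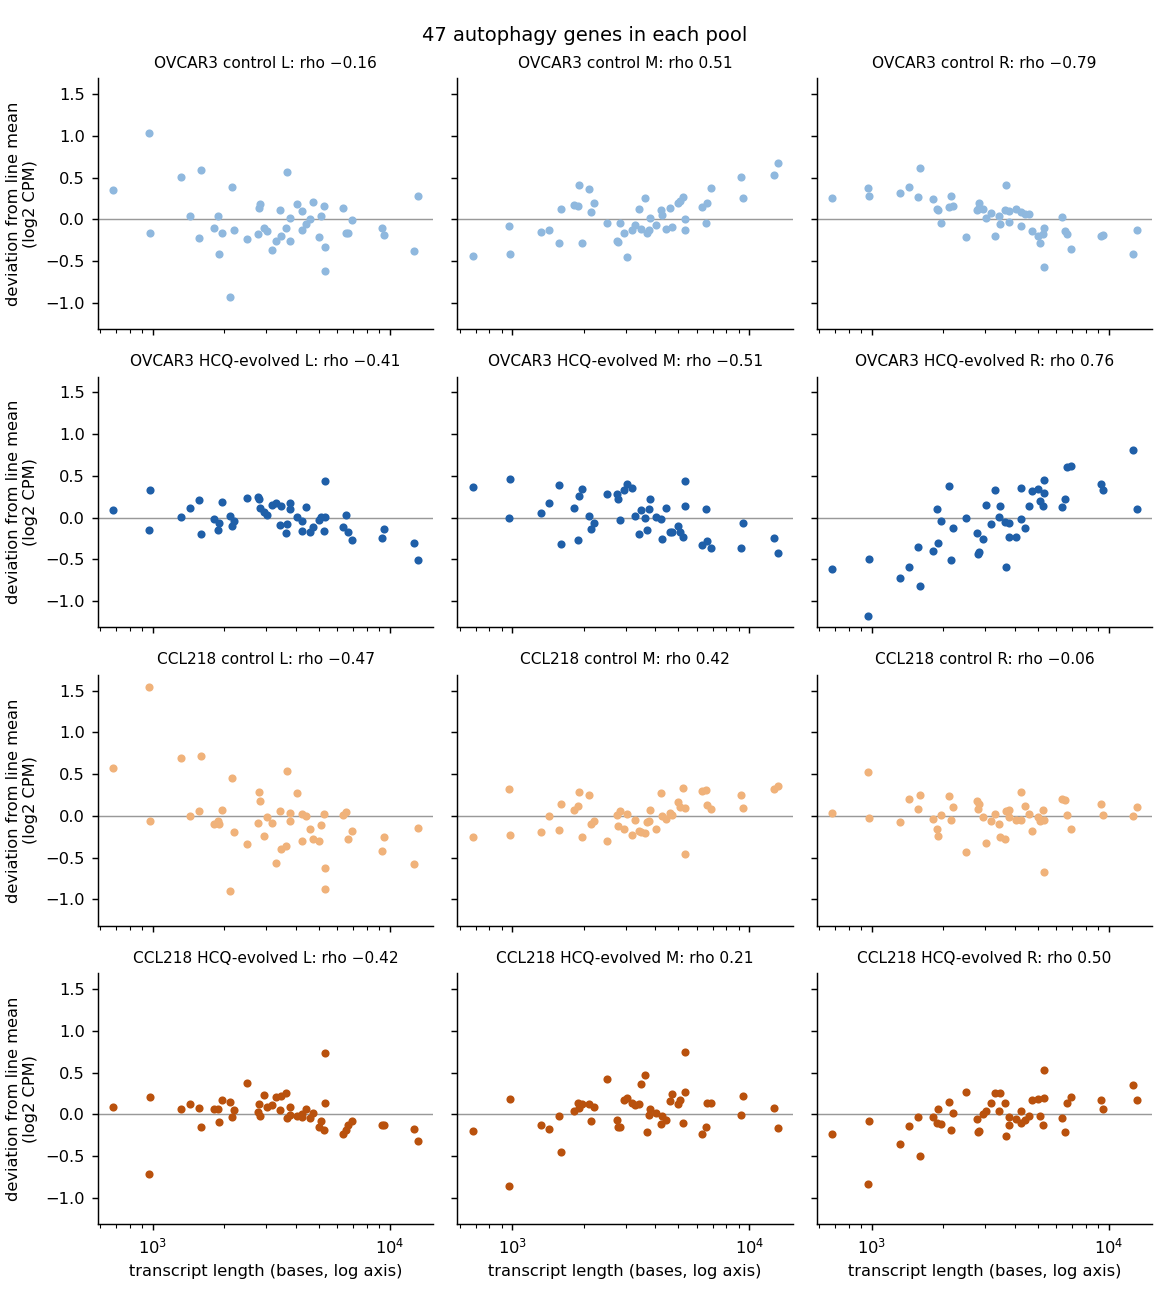
Deviation of each of the 47 genes from its mean over the 6 pools of its line (y axis, log2 CPM) against transcript length (x axis, bases, log scale), in each of the 12 pools, with Spearman rho over the 47 genes in each title. The slope is downward in OVCAR3 control pool R (rho -0.785) and upward in OVCAR3 HCQ-evolved pool R (rho 0.764).

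The promoters of the genes called higher in CCL218 are shown. Whether these genes are regulated together was not tested. RefSeq promoter windows were at hand for 43 of the 50 genes (GRCh38.p14), as 53 windows of 250 bases before a transcription start, and for ULK1, OPTN and CALCOCO2 of the 4 raised genes. They are written 5′ to 3′ on the coding strand, with motif matches on either strand in capitals. ULK1 lies on chromosome 12 (window chr12:131894372-131894621, plus strand), OPTN on chromosome 10 (first of its listed starts, chr10:13099832-13100081, plus strand) and CALCOCO2 on chromosome 17 (chr17:48830785-48831034, plus strand).
ULK1: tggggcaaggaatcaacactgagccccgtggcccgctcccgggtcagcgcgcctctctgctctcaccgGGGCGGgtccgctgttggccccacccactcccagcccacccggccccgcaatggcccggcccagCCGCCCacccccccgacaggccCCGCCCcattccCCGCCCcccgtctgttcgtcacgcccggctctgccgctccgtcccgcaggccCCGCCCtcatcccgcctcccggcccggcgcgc
OPTN: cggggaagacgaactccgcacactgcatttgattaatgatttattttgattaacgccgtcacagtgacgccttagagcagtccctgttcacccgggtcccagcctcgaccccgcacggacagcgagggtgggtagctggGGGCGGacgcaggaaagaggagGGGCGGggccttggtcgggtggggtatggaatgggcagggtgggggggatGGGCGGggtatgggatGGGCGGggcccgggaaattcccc
CALCOCO2: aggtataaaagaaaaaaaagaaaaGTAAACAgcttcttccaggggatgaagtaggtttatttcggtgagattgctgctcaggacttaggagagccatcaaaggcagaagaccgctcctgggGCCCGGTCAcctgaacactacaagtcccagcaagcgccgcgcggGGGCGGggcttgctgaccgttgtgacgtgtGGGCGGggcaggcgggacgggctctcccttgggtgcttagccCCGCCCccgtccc

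The letters searched, on both strands, were GTCACGTG (the core of the site bound by TFEB and TFE3, factors of lysosomal and autophagy genes), CACGTG (which every GTCACGTG contains), TGACNNNGC (the antioxidant response element), GTAAACA (a FOXO site), TGACGTCA (a cyclic AMP response element) and GGGCGG (a GC box). GGGCGG was found 5 times in the ULK1 window, 4 times in OPTN and 3 times in CALCOCO2, and 42.6% of all 35116 windows and 67.9% of the 53 windows hold it. The CALCOCO2 window also held TGACNNNGC, found in 10.9% of all windows and 7.55% of the 53, and GTAAACA, found in 2.98% of all windows and 1.89% of the 53. TGACGTCA was in 1.65% of all windows and in those of NRBF2 and GABARAPL1.

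GTCACGTG was in 2.16% of all windows and in 4 of the 53, those of ATG14, NRBF2, ATG3 and SNAP29, and CACGTG was in 6.34% of all windows and in the same 4. These are shown because none of the raised genes with a window held it, with 30 bases around each match and GTCACGTG or its reverse complement in capitals. The 30 bases printed for ATG14 lie at chr14:55411833-55411862 (minus strand), for NRBF2 at chr10:63133078-63133107 (plus strand), for ATG3 at chr3:112561964-112561993 (minus strand) and for SNAP29 at chr22:20858812-20858841 (plus strand).
ATG14: aaacaaaatccCACGTGACtggctctcctc
NRBF2: tcctCACGTGACttcagtgtagactttaag
ATG3: ccctttctcacGTCACGTGccgggagagtc
SNAP29: ggctttcccgcCACGTGACctctcagttgc

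In HCQ-evolved against control pools these 4 genes changed by 0.06, -0.19, 0.18 and 0.00055 log2 units in OVCAR3 and by 0.29, 0.04, 0.01 and 0.01 in CCL218, with 0 called. A match is a description of letters and says nothing of binding.

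The genes around the machinery were counted in the same way, from a list of 53 that are not among the 50. In OVCAR3, 1 of 45 tested was called higher, where 0.647% of all genes were, and 1 lower, where 1.21% were. In CCL218, 1 of 46 was called higher, against 3.82% of all genes, and 1 lower, against 2.64%. With plate position as a block, 4 of 46 were called higher in CCL218 (BNIP3L, PRKAB2, FOXO3 and SH3GLB1), against 7.82% of all genes, and 2 lower (AKT1S1 and BCL2L1), against 6.43%. The gene called higher was the same in both lines, BNIP3L, a receptor that brings mitochondria to autophagosomes. It was at 114 to 126 CPM in control and 202 to 242 CPM in HCQ-evolved OVCAR3 (log2 0.92, SE 0.17, adjusted p = 0.0406), and at 93.5 to 105 CPM in control and 220 to 257 CPM in HCQ-evolved CCL218 (log2 1.27, SE 0.12, adjusted p = 0.00275). The gene called lower in CCL218 was AKT1S1, an inhibitory subunit of mTORC1, at 194 to 223 CPM in control and 134 to 151 CPM in HCQ-evolved pools (log2 -0.53, SE 0.12, adjusted p = 0.0464). In OVCAR3 it was DEPTOR, another inhibitor of mTOR, at 17.1 to 20.4 CPM in control and 2.71 to 5.13 CPM in HCQ-evolved pools (log2 -2.18, SE 0.26, adjusted p = 0.0146). BNIP3L was called in CCL218 without any 1 of the 6 libraries, but in OVCAR3 in 1 of 6 such fits (adjusted p = 0.0289 to 0.184). AKT1S1 was called in 1 of 6 (adjusted p = 0.0039 to 0.268) and DEPTOR in OVCAR3 in 2 of 6 (adjusted p = 0.00245 to 0.137). Of the 4 tested transcription factors of autophagy genes (TFEB, TFE3, FOXO3 and ZKSCAN3), 0 were called without the block, and FOXO3 was called with it in CCL218 (log2 0.55, adjusted p = 0.0363). Of the 9 genes of the HOPS tether, RAB7 and its adaptors, 0 were called in either line, or with the block in CCL218.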

How the data were processed

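RNA from 12 pools of cells, 4 groups of 3, was sequenced after polyA selection. The deposited file holds raw gene counts: the authors aligned reads to hg38 with STAR on the UseGalaxy platform, removed duplicates with RmDup and counted with featureCounts. Versions, annotation and strand setting are not given in the sources used here. Of the 29816 entries of 1 to 4 counts, 78.9% were even, which may mean that both mates of a read pair were counted. The counts would then be nearly double the fragments, which was not tested. From these counts, edgeR 4.0.16 (R 4.3.3) was run with TMM factors and its robust quasi-likelihood test, each line fitted alone and the line contrasts in 1 fit of all 12 libraries, with genes at 1 CPM or more in 3 libraries. DESeq2 1.42.0 and limma-voom (limma 3.58.1) were alternatives. The fitting code was tested on simulated data. Transcript lengths came from GENCODE canonical transcripts matched by symbol for 91.1% of genes. Same-position pools correlated in CCL218 (0.537, 0.265 and 0.225 for L, M and R, in deviations from group means) but not in OVCAR3 (0.417, -0.687 and -0.497). The CCL218 comparison was therefore also made with plate position as a block, although control pool M and HCQ-evolved pool R correlated at 0.467 there. Unless the block is named, CCL218 values are from the fit without it. The 50 genes and the lists were chosen with earlier results of these data known. Genes were given pool by pool where called within a line or by the interaction, where they had the smallest p of their role group, or where the study names them. Some of these were given for a single line or partly as ranges. SQSTM1, MAP1LC3B, WDR45, TAX1BP1 and the examples of the length trend were added after their values were seen. The other data of the study were not analysed here.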

Additional observations from a re-analysis of the deposited data

Results flagged for a closer look

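DEPTOR, an inhibitor of mTOR outside the 50 genes, changed differently in the lines by the interaction test (2.22 log2 units higher in CCL218, SE 0.30, edgeR adjusted p = 0.00603). It was at 17.1 to 20.4 CPM in control and 2.71 to 5.13 CPM in HCQ-evolved OVCAR3, and at 29.6 to 33.4 CPM in control and 26.97 to 37.0 CPM in HCQ-evolved CCL218.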

How the results depend on the processing

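The number of the 47 genes called in OVCAR3 (0, share of all genes called in brackets) was 2 with DESeq2 (9.05%), 1 without the filter on low counts (2.56%), 4 with the trend of length and GC content removed from each library (8.60%), 1 with that trend removed and plate position as a replicate block (3.56%), and 2 in a fit of all 12 libraries (9.24%). In CCL218 (5) it was 3 at 5 CPM or more (5.58%), where MAP1LC3A is not tested, 8 with the trend removed (18.9%), and 1 to 10 with 1 library left out (0.841 to 25.2%). With the block alone it was 6 in CCL218 (14.2%) and 0 in OVCAR3 (0.664%), and no call among the 47 genes changed in the interaction or between lines. Among the 53 surrounding genes the block added PRKAB2, FOXO3, SH3GLB1 and BCL2L1 in CCL218, and BNIP3L in OVCAR3, where positions do not pair the pools, had an adjusted p of 0.163 with it. For the interaction (0), DESeq2 (3.67%) and the trend removal (3.30%) each gave 2. Between lines, control pools (0) gave 1 with DESeq2 (7.33%) and 0 to 1 with 1 library left out. HCQ-evolved pools (7) gave 12 with DESeq2 (20.7%), 4 without the filter (6.41%), 12 with the trend removed (20.2%), 12 with trend and block (22.0%), and 2 to 20 with 1 library left out (6.30 to 31.5%). The cause of these differences was not tested.

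Signs turned for genes near 0, none of them called. With the trend removed, without and with the block, the log2 fold change was 0.015 and 0.016 for ATG13 and -0.057 and -0.059 for PIK3C3 in OVCAR3, 0.009 and 0.043 for ATG101 and -0.055 and -0.054 for PIK3C3 in CCL218, -0.145 and -0.148 for STX17 in OVCAR3, -0.059 and -0.060 for SNAP29 in OVCAR3, and -0.073 and -0.063 for SNAP29 in CCL218. STX17 was at -0.009 in CCL218 with the trend removed and at -0.00017 in OVCAR3 with the block. ATG13 was at 0.00093 in OVCAR3 without the filter. SNAP29 in OVCAR3 was at -0.008 with DESeq2 size factors and with DESeq2, -0.026 with voom, -0.021 at 5 CPM or more, -0.029 with the block and -0.021 with all 12 libraries, and in CCL218 at -0.00020 at 5 CPM or more. With 1 library left out, the log2 fold change ran from -0.292 to 0.029 for ATG101, -0.129 to 0.014 for ATG13, -0.113 to 0.469 for BECN1, -0.073 to 0.278 for PIK3C3, -0.230 to 0.127 for SNAP29 and -0.356 to 0.274 for STX17 in OVCAR3, and from -0.118 to 0.365 for BECN1, -0.010 to 0.185 for PIK3C3 and -0.012 to 0.035 for SNAP29 in CCL218. ULK1 in CCL218 was called in all 9 other fits and without any 1 library, WDR45B in all 9 and MAP1LC3A in all 8 fits that tested it, OPTN in 8 of 9 (adjusted p = 0.0534 without the filter) and CALCOCO2 in 7 of 9 (adjusted p = 0.0534 without the filter and 0.0525 at 5 CPM or more). With 1 library left out, WDR45B and MAP1LC3A were each called in 2 of 6 fits, and OPTN and CALCOCO2 in 1 of 6. With 3 pools a group, small changes of low genes are not resolved.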

Other observations

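BECN1 was low in control pool L of both lines, and few genes shared that pattern. Of 12613 tested genes, 29 (0.23%) were at least 1 log2 unit lower in control pool L than in both other control pools in each line, and BECN1 was the 1 gene of the machinery among them. The others include MYC, HSPA8, PDIA6, EDEM1, SLC25A24, OCLN, RACGAP1, BMI1 and CRY1, and a shared role was not tested. Control pool L also had the most genes with a count among the control pools of its line, 18992 in OVCAR3 and 18568 in CCL218. The HCQ-evolved L pools did not share the low BECN1 level, at 37.7 CPM in OVCAR3 and 50.4 CPM in CCL218. BECN1 was looked at here after its values were seen, and a cause was not tested.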
